A study of Mus musculus with 22 samples.

Results

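Mice that lack both Rag2 and the common gamma chain of cytokine receptors (genotype Rag2-/-γc-/-, written here as Rag2 gc KO) were set against mice that lack Rag2 alone (genotype Rag2-/-, Rag2 KO). Each group had 3 libraries of bulk RNA from retina and choroid dissected together, taken at day 3 after laser burns that set off choroidal neovascularisation (CNV), in which vessels of the choroid break through towards the retina. The 6 libraries were chosen by genotype from the 22 of the series, and all 54532 genes of their table were considered, of which 18923 had enough counts to be tested. The labels give genotype, tissue, laser and day. The treatment protocol speaks of adult C57BL/6J mice for every sample, while the sources used here do not give the origin of the knockout alleles, the exact age or the number of animals behind a library. P-values therefore measure the spread between these libraries. By the series' design text, the pair was sequenced to ask how natural killer (NK) cells act against these vessels. The wild type, C57BL/6J, had 4 control libraries without CNV and 4 at day 3 in a separate table. Its levels are set beside the knockouts without a test.

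Rag2 is part of the enzyme that cuts and joins antigen receptor genes, and without it neither T cells nor B cells mature. Il2rg encodes the common gamma chain, a subunit shared by the receptors for interleukins 2, 4, 7, 9, 15 and 21, which signal through Jak1 and Jak3 to Stat factors. NK cells and other innate lymphoid cells need this signal, interleukin 15 above all for NK cells, so mice without both genes lack NK cells as well as T and B cells. In the eye after laser, NK cells are a small population beside microglia, monocyte-derived macrophages and neutrophils.

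Total counts per library were 27227847 to 28056505 in Rag2 gc KO and 29846221 to 30315086 in Rag2 KO. The tissue labels were borne out by rod photoreceptor genes, which took 5.45% to 7.24% of all counts in Rag2 gc KO and 7.05% to 8.05% in Rag2 KO. Pairs of libraries correlated on log2 CPM (counts scaled to a common library size, with edgeR's TMM factors) over all tested genes with r of 0.976 to 0.982 within Rag2 gc KO, 0.983 to 0.985 within Rag2 KO and 0.972 to 0.98 between the groups. The lens list took 0.564%, 1.01% and 0.0279% of counts in Rag2 gc KO replicates 1 to 3, against 0.422%, 0.98% and 0.276% in Rag2 KO. The skeletal muscle list took 0.0518%, 0.0712% and 0.0143% in Rag2 gc KO, against 0.0189%, 0.0146% and 0.0109% in Rag2 KO. Rag2 gc KO replicate 3 stood apart from the rest, with the least lens RNA, the fewest rod counts and the highest levels of many gliosis genes.

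The 2 targeted genes were read first. Il2rg (ENSMUSG00000031304, chromosome X, 101264378 to 101268255 on mm10) had 0 counts in each of the 3 Rag2 gc KO libraries, against 37, 62 and 28 counts in Rag2 KO, or 1.22, 2.08 and 0.927 CPM. With a floor of 3 counts over the group, its level was at least 38.8-fold lower in Rag2 gc KO (edgeR adjusted p = 0.0216). The genotype labels of all 6 libraries fit this gene, although its call by edgeR was lost when any 1 of the Rag2 KO libraries was left out (edgeR adjusted p = 0.0651 to 0.0882). Wild-type day 3 libraries held 1.29 to 2.19 CPM and controls 0.454 to 0.697 CPM. The gene model of Il2rg overlaps that of Gm20489, with 730 identical bases, so reads of both may mix. Rag2 (ENSMUSG00000032864, chromosome 2, 101624718 to 101632529) had 0, 1 and 0 counts in Rag2 gc KO and 0 in all of Rag2 KO. It was too low to test, and since wild-type libraries hold next to none of it either, it checks nothing here.

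Over all tested genes edgeR called 88 at an adjusted p under 0.05 (0.465% of those tested), 40 higher (0.211%) and 48 lower (0.254%) in Rag2 gc KO. Of the 88, 35 differed at least 2-fold, 16 higher and 19 lower, 72 are protein coding genes and 5 are pseudogenes. None of the 88 overlapped between the groups, beside 2180 (11.5%) of all tested genes without overlap and higher and 2000 (10.6%) without overlap and lower. The median log2 fold change over all tested genes was 0.004, and 50.83% lay above 0. At an unadjusted p under 0.05 there were 2778 genes (14.7%), 1509 higher (7.97%) and 1269 lower (6.71%). DESeq2 called 693 genes (3.85% of 18019), 427 higher (2.37%) and 266 lower (1.48%), and limma voom called 81 (0.428%). Of the 88, DESeq2 also called 86 and limma voom 77. Leaving out Rag2 KO replicate 2 left 25 calls and leaving out Rag2 KO replicate 3 left 29, while 17 of the 88 were called in each of the 6 runs that leave out 1 library.

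**Figure D1:**
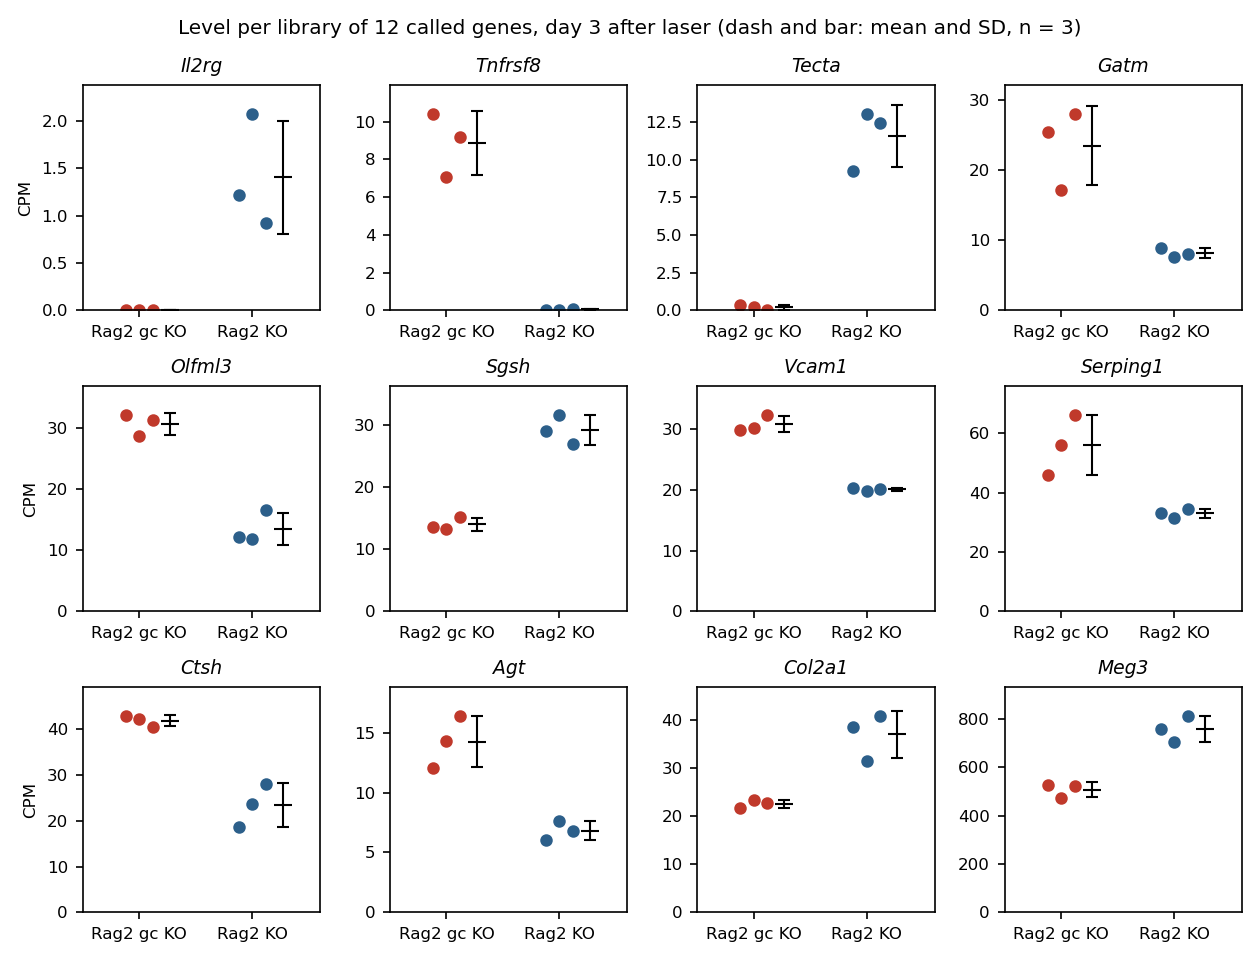
Level in each library, in CPM on the vertical axis, of 12 genes called between Rag2 gc KO on the left and Rag2 KO on the right of each panel, with the mean and SD of 3 libraries beside the points. Points of the 2 groups do not overlap in any panel, and Il2rg at 0 in Rag2 gc KO and Tnfrsf8 and Tecta differ by the largest ratios.

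Transcripts of NK receptors and cytotoxic effectors were scarce in both genotypes and nearly absent in Rag2 gc KO, while the whole NK list overlapped between them. Summed over 22 genes of NK receptors and cytotoxic effectors, the libraries held 0, 2 and 1 counts in Rag2 gc KO, against 5, 46 and 5 in Rag2 KO. The groups did not overlap, but most of the Rag2 KO sum came from replicate 2. In bulk tissue, fewer cells of a type cannot be told apart from less RNA per cell, here and for every list below. Over the 3 Rag2 gc KO libraries Klrk1, the activating receptor NKG2D, had 1 count in all, and Klrd1, the CD94 chain of inhibitory receptors, the granule proteases Gzma and Gzmb and the granule protein Nkg7 had 0. In Rag2 KO replicate 2 alone, Klrk1 had 10 counts, Klrd1 and Gzmb 8 each, and Gzma and Nkg7 6 each. Ncr1, the NKp46 receptor that defines mouse NK cells, had 0, 1 and 0 counts in Rag2 gc KO and 0, 0 and 1 in Rag2 KO, so it did not set the genotypes apart at this depth. These 22 genes were picked from the NK list after their values were seen, since the rest of that list is also expressed by other cells. At 0 counts, a floor of 3 counts equals 0.107 to 0.11 CPM in the Rag2 gc KO libraries and 0.099 to 0.101 CPM in Rag2 KO, for counting error only.

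**Figure D2:**
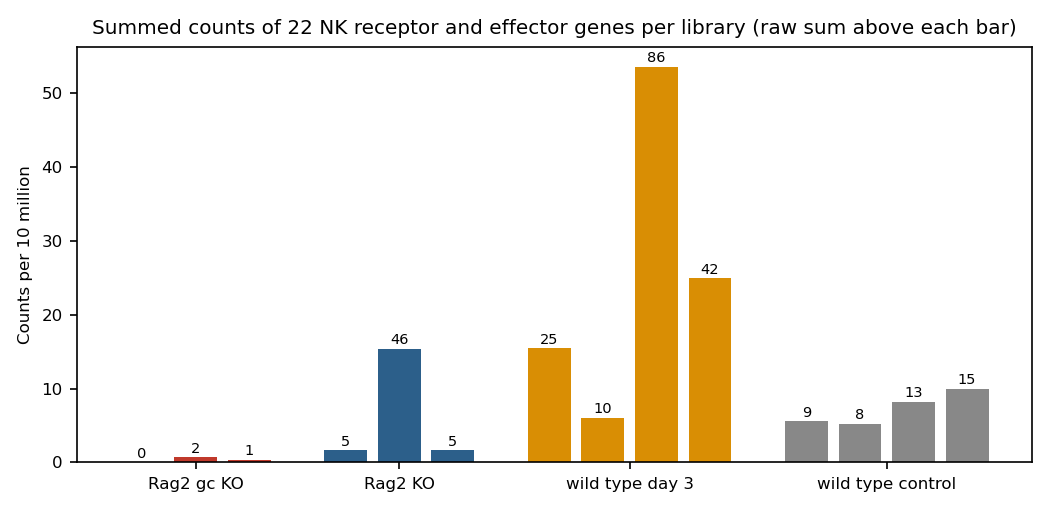
Summed counts of 22 NK receptor and effector genes in each library, as counts per 10000000 on the vertical axis, with the raw sum above each bar, for Rag2 gc KO, Rag2 KO, wild type at day 3 and wild-type control. The 3 Rag2 gc KO libraries hold 0 to 2 counts, 2 of the 3 Rag2 KO libraries hold 5, and Rag2 KO replicate 2 with 46 lies within the wild-type day 3 range.

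Per 10000000 counts the NK sum was 0, 0.715 and 0.356 in Rag2 gc KO, against 1.65, 15.4 and 1.67 in Rag2 KO. The wild type held 6.05 to 53.6 at day 3 and 5.27 to 9.98 in control, so 2 of the 3 Rag2 KO libraries lay below every wild-type library. Of the 38 genes of the whole NK list, 9 had enough counts to test. None was called by edgeR, DESeq2 or limma voom, 1 had an unadjusted p under 0.05, and the median log2 fold change was -0.02. Those 9 include genes that the retina or other blood cells use. The whole list summed to 17.89, 19.75 and 16.04 CPM in Rag2 gc KO, against 15.97, 22.19 and 17.21 CPM in Rag2 KO, with overlap. Eomes, a factor of NK cells that retinal neurons also express, had 191, 251 and 187 counts in Rag2 gc KO, against 235, 219 and 203 in Rag2 KO. The 1 gene was Il18rap, a chain of the interleukin 18 receptor, with 10, 10 and 12 counts in Rag2 gc KO, against 0, 5 and 4 in Rag2 KO (log2 fold change 1.91, edgeR adjusted p = 0.29). Il2rb, the receptor chain that pairs with the common gamma chain for interleukins 2 and 15, had 8, 16 and 7 counts in Rag2 gc KO, against 12, 17 and 20 in Rag2 KO, and the groups overlapped.

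Genes of the other lymphocytes were low in both groups. Over 8 T cell receptor and coreceptor genes the sums were 5, 4 and 20 counts in Rag2 gc KO, against 10, 20 and 11 in Rag2 KO. Over 6 B cell genes they were 19, 40 and 29 counts in Rag2 gc KO, against 19, 33 and 35 in Rag2 KO. Both sums overlapped between the groups. These genes were picked from lists of 17 T cell and 12 B cell genes. Of the whole lists, 4 and 5 genes had enough counts to test. None of them was called by edgeR, DESeq2 or limma voom, and the median log2 fold changes were 0.14 and 0.03. Of 9 tested genes of other innate lymphoid cells edgeR, DESeq2 and limma voom called 0, 7 lay above 0, and 1 was higher and 1 lower at an unadjusted p under 0.05, with a median log2 fold change of 0.07. The higher one was Il1rl1, the receptor for interleukin 33, at 0.671, 0.36 and 1.2 CPM in Rag2 gc KO, against 0.099, 0.0335 and 0.298 CPM in Rag2 KO, without overlap and without a call (log2 fold change 2.34, edgeR adjusted p = 0.204). The lower one was Il22, a cytokine that innate lymphoid cells make, at 0.932, 1.33 and 0.956 CPM in Rag2 gc KO, against 1.85, 2.01 and 1.56 CPM in Rag2 KO (log2 fold change -0.75, edgeR adjusted p = 0.297).

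Apart from Il2rg, no gene of the common gamma chain receptors and their signalling was called. Of 13 tested members 1 was called lower and 0 higher, 4 were higher and 1 lower at an unadjusted p under 0.05, and the list's median log2 fold change was 0.16. DESeq2 and limma voom each called Il2rg and no other member. Stat5a, which carries the signal of these receptors to the nucleus, stood at 6.67, 8.36 and 11 CPM in Rag2 gc KO, against 4.92, 6.59 and 5.93 CPM in Rag2 KO (log2 fold change 0.58, edgeR adjusted p = 0.275). Il21r, the private chain of the interleukin 21 receptor, stood at 1.04, 0.829 and 1.03 CPM in Rag2 gc KO, against 0.297, 0.301 and 0.761 CPM in Rag2 KO (1.08, edgeR adjusted p = 0.315). Both separated the groups without passing the test. Jak3, the kinase that binds the common gamma chain itself, was at 21.1, 31.9 and 59.3 CPM in Rag2 gc KO, against 14.2, 17.8 and 24.1 CPM in Rag2 KO, with overlap (log2 fold change 1.0, edgeR adjusted p = 0.397). Of 14 tested target genes of Stat5 and Stat6 none was called by edgeR or limma voom and DESeq2 called 1, with a median log2 fold change of 0.34. Of the 14, 11 lay above 0, and 2 were higher and 1 lower at an unadjusted p under 0.05. The 2 higher were Bcl6, a repressor of transcription, at 34.6, 42 and 54.1 CPM in Rag2 gc KO, against 24.3, 31.9 and 32.1 CPM in Rag2 KO (0.57, edgeR adjusted p = 0.238, DESeq2 adjusted p = 0.0282), and Socs1, a feedback inhibitor of Jak kinases. Socs1 was at 2.54, 2.52 and 4.42 CPM in Rag2 gc KO, against 2.15, 1.88 and 1.85 CPM in Rag2 KO (0.69, edgeR adjusted p = 0.319). The lower one was the survival gene Bcl2, at 22.5, 21.9 and 15.3 CPM in Rag2 gc KO, against 25.3, 26.8 and 28.8 CPM in Rag2 KO (-0.44, edgeR adjusted p = 0.234).

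The microglial gene Olfml3 rose in Rag2 gc KO. Microglia, the resident phagocytes of the retina, take up and digest debris after injury. Olfml3, a secreted protein enriched in microglia (ENSMUSG00000027848, chromosome 3, 103722222 to 103738001), stood at 32.1, 28.6 and 31.3 CPM in Rag2 gc KO, against 12.1, 11.8 and 16.6 CPM in Rag2 KO. It rose by 1.19 ± 0.139 on the log2 scale (SE, edgeR adjusted p = 0.0118). Every Rag2 gc KO library lay above every Rag2 KO library. Olfml3 lost its call without Rag2 KO replicate 2 (edgeR adjusted p = 0.0592). The wild type held 75.25 to 229.1 CPM of it at day 3, above both knockouts, and 9.757 to 21.47 CPM in control.

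Among the called genes were 3 cathepsins, higher in Rag2 gc KO, and the sulfatase Sgsh, lower. These 4 lysosomal enzymes were picked from the called genes after their values were seen and belong to no list. Ctsh, an aminopeptidase of lysosomes, was at 42.8, 42.2 and 40.5 CPM in Rag2 gc KO, against 18.6, 23.7 and 28.1 CPM in Rag2 KO (log2 fold change 0.84, edgeR adjusted p = 0.0469). Ctsz, a carboxypeptidase, was at 118, 108 and 116 CPM in Rag2 gc KO, against 69.1, 79.9 and 84.9 CPM in Rag2 KO (0.55, edgeR adjusted p = 0.0339). Ctsl, an endopeptidase, was at 255, 252 and 258 CPM in Rag2 gc KO, against 200.3, 199 and 195 CPM in Rag2 KO (0.37, edgeR adjusted p = 0.038). The change in Ctsl was small and its libraries lay close together in each group. Sgsh, which degrades heparan sulfate in the same organelle, fell, at 13.6, 13.3 and 15.3 CPM in Rag2 gc KO, against 29, 31.6 and 26.9 CPM in Rag2 KO (-1.05, edgeR adjusted p = 0.00579), and it kept its call in all 6 runs without a library. Ctsz and Ctsl lost theirs in every such run (edgeR adjusted p up to 0.126 and 0.191), and Ctsh kept its call only without Rag2 KO replicate 1 or 3 (up to 0.177). Wild-type day 3 libraries held 8.95 to 11.2 CPM of Sgsh. The gene model of Sgsh overlaps that of Card14, with 841 identical bases, so reads of both may mix.

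Of 15 tested microglia genes, 2 were called higher, Olfml3 among them, and 0 lower. All 15 had a log2 fold change above 0, with a median of 0.63 beside 0.004 over all tested genes, and 9 were higher at an unadjusted p under 0.05. DESeq2 called 7 of them higher and limma voom called 2. The summed level of the list was 869, 686 and 664 CPM in Rag2 gc KO, against 407, 521 and 558 CPM in Rag2 KO, without overlap. Cx3cr1, the fractalkine receptor, was at 13.9, 10.9 and 15.2 CPM in Rag2 gc KO, against 5.94, 7.97 and 8.51 CPM in Rag2 KO (0.84, edgeR adjusted p = 0.109, DESeq2 adjusted p = 0.00217). Homeostatic markers differed less and did not pass: Tmem119 was at 12.1, 6.23 and 7.61 CPM in Rag2 gc KO, against 5.41, 7.57 and 6.26 CPM in Rag2 KO, and the groups overlapped.

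Monocyte and macrophage genes leaned the same way without a call. Of 25 tested, edgeR called 0 and limma voom 0, DESeq2 called 10 higher, and 12 were higher at an unadjusted p under 0.05, with a median log2 fold change of 0.63. The list summed to 1380, 742 and 1133 CPM in Rag2 gc KO, against 516, 694 and 540 CPM in Rag2 KO. Adgre1, the F4/80 antigen of macrophages, was at 9.17, 5.22 and 6.83 CPM in Rag2 gc KO, against 3, 3.75 and 2.75 CPM in Rag2 KO (1.16, edgeR adjusted p = 0.104). Fcgr3, an activating receptor for immunoglobulin G, was at 15.7, 5.91 and 10.9 CPM in Rag2 gc KO, against 3.5, 4.22 and 3.18 CPM in Rag2 KO (1.58, edgeR adjusted p = 0.113). Spp1, the secreted matrix protein osteopontin, was at 504, 334 and 442 CPM in Rag2 gc KO, against 207, 259 and 182 CPM in Rag2 KO (0.98, edgeR adjusted p = 0.113). In each of the 3 the groups were apart, with replicate 2 the lowest in Rag2 gc KO. Ccr2, the receptor that draws monocytes from blood, was at 13.4, 3.5 and 9.91 CPM in Rag2 gc KO, against 3.43, 4.18 and 2.15 CPM in Rag2 KO, and overlapped (1.45, edgeR adjusted p = 0.288). Of 19 genes of disease-associated microglia 0 were called by edgeR and by limma voom, 6 by DESeq2, and 10 were higher at an unadjusted p under 0.05, with a median of 0.49. Tyrobp, a signalling adaptor of phagocyte receptors, was at 26.6, 15.7 and 19.6 CPM in Rag2 gc KO, against 11.7, 12.6 and 11.1 CPM in Rag2 KO (0.81, edgeR adjusted p = 0.115).

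**Figure D3:**
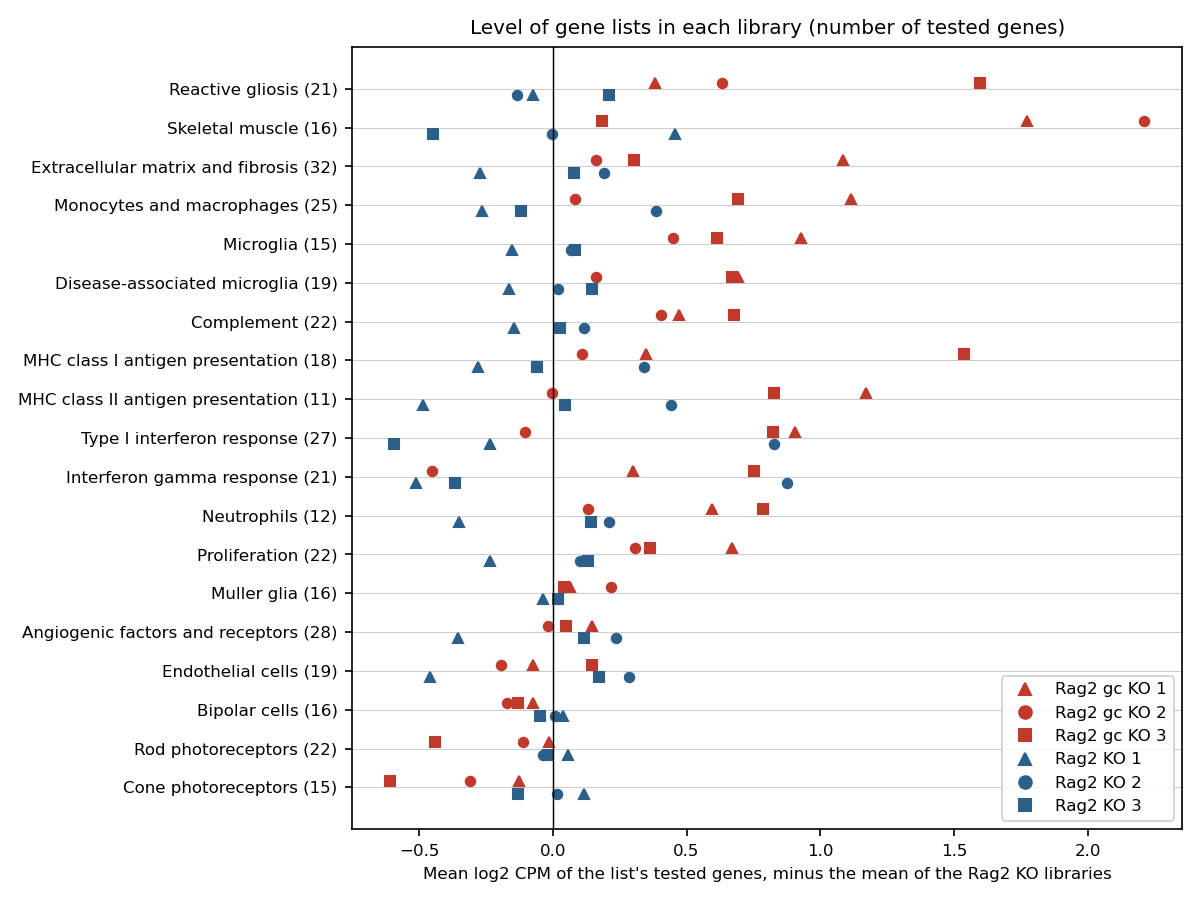
Mean log2 CPM of the tested genes of 19 lists in each library, as the difference from the mean of the 3 Rag2 KO libraries on the horizontal axis, with the number of tested genes in brackets, Rag2 gc KO in red above Rag2 KO in blue, and 1 symbol per replicate. Microglia, complement and reactive gliosis lists lie to the right in all 3 Rag2 gc KO libraries, matrix and macrophage lists most in replicate 1 and gliosis and MHC class I lists most in replicate 3.

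The complement list of 22 tested genes held 1 call, and 16 of the 22 had a log2 fold change above 0. The called complement protease Masp2, lower in Rag2 gc KO, is not in that list and is described with its neighbours on chromosome 4. Serping1, the inhibitor of the C1 proteases that start the classical pathway (ENSMUSG00000023224, chromosome 2, 84765387 to 84775444), was at 46, 56.1 and 66.2 CPM in Rag2 gc KO, against 33.3, 31.4 and 34.4 CPM in Rag2 KO. It rose by 0.77 ± 0.124 on the log2 scale (SE, edgeR adjusted p = 0.0457), and lost the call with limma voom (adjusted p = 0.0658) and without Rag2 gc KO replicate 2 or any 1 of the Rag2 KO libraries (edgeR adjusted p = 0.109 to 0.188). It was the 1 called of 22 tested complement genes, with a median log2 fold change of 0.58. At an unadjusted p under 0.05, 10 of the 22 were higher, and DESeq2 called 10. C1qb, a subunit of the C1q starter molecule made by microglia and macrophages, was at 92, 59 and 68 CPM in Rag2 gc KO, against 30.2, 37.2 and 30.8 CPM in Rag2 KO (1.16, edgeR adjusted p = 0.0591). C3, the central component, was at 21.4, 49.9 and 23.1 CPM in Rag2 gc KO, against 9.97, 9.01 and 8.14 CPM in Rag2 KO (1.80, edgeR adjusted p = 0.137). Clu, an extracellular chaperone that restrains the lytic end of the cascade, was at 1267, 1629 and 1934 CPM in Rag2 gc KO, against 973, 844 and 917 CPM in Rag2 KO (0.82, edgeR adjusted p = 0.073). All 3 separated the groups in every library and missed the threshold, and DESeq2 called each of them (adjusted p = 3.27e-10, 0.00126 and 4.32e-07). Leaving out Rag2 gc KO replicate 3 took the list's median to 0.44.

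Vcam1, the adhesion molecule of activated vessel walls and glia that holds leukocytes by their integrins, rose in Rag2 gc KO (ENSMUSG00000027962, chromosome 3, 116109949 to 116129688). It stood at 29.9, 30.2 and 32.4 CPM in Rag2 gc KO, against 20.3, 19.9 and 20.2 CPM in Rag2 KO, or 0.62 ± 0.0814 on the log2 scale (SE, edgeR adjusted p = 0.0202). The libraries of a group differed little, and leaving out any 1 Rag2 KO library ended the call (edgeR adjusted p = 0.0557 to 0.0972). It was the 1 called of 8 tested genes of neutrophil recruitment and growth, whose median was 0.58. DESeq2 and limma voom each called Vcam1 alone, and no other member had an unadjusted p under 0.05. Wild-type libraries held 17.9 to 36.8 CPM of Vcam1 at day 3 and 10.1 to 11.7 CPM in control.

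Neutrophils are named in the title of the study as partners of NK cells. Of 12 tested neutrophil genes edgeR and limma voom called 0, DESeq2 called 1 higher, and 4 were higher at an unadjusted p under 0.05, with a median log2 fold change of 0.28. The granule genes that define the cell were very low. S100a8, the calgranulin that neutrophils carry in bulk, was at 1.38, 0.757 and 1.77 CPM in Rag2 gc KO, against 0.792, 1.24 and 1.19 CPM in Rag2 KO, with overlap. Csf3r, through which granulocyte colony-stimulating factor drives neutrophil output, was at 9.32, 6.56 and 6.51 CPM in Rag2 gc KO, against 1.78, 6.19 and 3.24 CPM in Rag2 KO (log2 fold change 1.0, edgeR adjusted p = 0.34). Lcn2, a siderophore binder of neutrophils that reactive glia also make, was at 52.6, 126 and 259 CPM in Rag2 gc KO, against 29.7, 11.9 and 32 CPM in Rag2 KO (2.57, edgeR adjusted p = 0.288). The whole list summed to 105, 168 and 304 CPM in Rag2 gc KO, against 60.8, 55.7 and 74 CPM in Rag2 KO, without overlap. Without Lcn2 the other 20 genes summed to 52.3, 41.8 and 45.1 CPM in Rag2 gc KO, against 31.1, 43.7 and 42 CPM in Rag2 KO, and the groups overlapped.

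Endothelial genes overlapped between the genotypes at day 3. Of 19 tested endothelial genes edgeR, DESeq2 and limma voom called 0, and 0 had an unadjusted p under 0.05, with a median log2 fold change of -0.07 and a summed level of 527 to 610 CPM in Rag2 gc KO and 463 to 666 CPM in Rag2 KO. Of 28 angiogenic factors and receptors edgeR and limma voom called 0, DESeq2 called 1 higher, and 3 were higher and 2 lower at an unadjusted p under 0.05, with a median of 0.08. Vegfa, the main growth factor of CNV, was at 161, 134 and 172 CPM in Rag2 gc KO, against 192, 185 and 181 CPM in Rag2 KO (-0.26, edgeR adjusted p = 0.253). Its receptor Kdr was at 181, 211 and 296 CPM in Rag2 gc KO, against 156, 178 and 139 CPM in Rag2 KO (0.54, edgeR adjusted p = 0.303). Each pair of groups was apart in the direction given and neither passed.

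Reactive gliosis, the stress state of Muller glia and astrocytes, had the largest list median after skeletal muscle, and its libraries spread widely. Of 21 tested genes 0 were called by edgeR or limma voom, 3 by DESeq2, and 9 were higher at an unadjusted p under 0.05, with a median log2 fold change of 1.02. Rag2 gc KO replicate 3 carried much of it: without that library the median was 0.50. Cd44, the hyaluronan receptor of reactive glia, was at 67.2, 72.5 and 101 CPM in Rag2 gc KO, against 43.1, 40.3 and 47.2 CPM in Rag2 KO (0.88, edgeR adjusted p = 0.0887). Edn2, a vasoactive peptide of stressed photoreceptors, was at 114, 145 and 321 CPM in Rag2 gc KO, against 56.8, 52.4 and 92 CPM in Rag2 KO (1.53, edgeR adjusted p = 0.308). Gfap, the filament protein of reactive glia, was at 135, 270 and 558 CPM in Rag2 gc KO, against 228, 142 and 282 CPM in Rag2 KO, with overlap. Its log2 fold change was 0.56 and was -0.10 without Rag2 gc KO replicate 3. The 16 Muller glia genes had a median of 0.12, with 5 higher at an unadjusted p under 0.05, 3 called by DESeq2 and 0 by edgeR and limma voom.

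Photoreceptor genes leaned down in the same libraries. Of 22 tested rod genes edgeR called 0, limma voom 1, and DESeq2 1 higher and 2 lower, and 1 was higher and 4 lower at an unadjusted p under 0.05, with a median log2 fold change of -0.22. Pde6a, a subunit of the rod phosphodiesterase, was at 1306, 1218 and 1196 CPM in Rag2 gc KO, against 1900, 1628 and 1655 CPM in Rag2 KO (-0.48, edgeR adjusted p = 0.0586). The 15 cone genes had a median of -0.37, with 0 called by edgeR and limma voom, 2 called lower by DESeq2 and 3 lower at an unadjusted p under 0.05. Without Rag2 gc KO replicate 3 the rod median was -0.09 and the cone median -0.25.

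Lists of the other cells of the tissue held no call by edgeR. Bipolar cell genes had a median log2 fold change of -0.11 over 16 genes, amacrine and horizontal cell genes -0.10 over 19 and ganglion cell genes -0.03 over 16. Pericyte and smooth muscle genes had -0.10 over 13 and genes of the retinal pigment epithelium 0.23 over 20. In these 5 lists edgeR and limma voom called 0, and DESeq2 called 1 bipolar gene lower and 3 pigment epithelium genes higher. At an unadjusted p under 0.05, 1 bipolar gene was higher and 5 were lower, and 5 pigment epithelium genes were higher and 0 lower. At the same level 1 amacrine or horizontal gene was higher and 1 lower, 1 pericyte gene was lower, and 0 ganglion cell genes passed. Genes of oligodendrocytes and Schwann cells had a median of -0.67 over 11 tested genes, with 0 called by any of the 3 tools and 0 at an unadjusted p under 0.05. That list summed to 141, 194 and 330 CPM in Rag2 gc KO, against 136, 159 and 517 CPM in Rag2 KO, with overlap. Chemokines and their receptors had a median of 0.42 over 20 genes, with 0 called by edgeR and limma voom, 3 by DESeq2 and 5 higher at an unadjusted p under 0.05.

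Matrix genes had 1 library far above the others. Of 32 tested genes of extracellular matrix and fibrosis edgeR called 0, limma voom 1 and DESeq2 3, and 6 were higher at an unadjusted p under 0.05. Their median log2 fold change was 0.73 and was 0.04 without Rag2 gc KO replicate 1. Col1a1, a chain of type I collagen, was at 452, 84.1 and 49.3 CPM in Rag2 gc KO, against 39.5, 100.3 and 75.2 CPM in Rag2 KO, and Postn, a matrix protein of fibroblasts, at 142, 17.9 and 14.8 CPM in Rag2 gc KO, against 14.1, 21.8 and 20.9 CPM in Rag2 KO. For both genes the groups overlapped, and replicate 1 alone of Rag2 gc KO lay above every Rag2 KO library. Outside that list, 3 called genes also concern the matrix and were picked after their values were seen. Timp2, an inhibitor of matrix metalloproteinases, rose, at 202, 199.8 and 212 CPM in Rag2 gc KO, against 151, 152 and 159.8 CPM in Rag2 KO (0.41, edgeR adjusted p = 0.0311), and lost its call in all 6 runs without a library (0.0544 to 0.152). The fibrillar collagen genes Col2a1 and Col11a2 fell: Col2a1 was at 21.8, 23.5 and 22.7 CPM in Rag2 gc KO, against 38.7, 31.6 and 40.9 CPM in Rag2 KO (-0.71, edgeR adjusted p = 0.0311). Col11a2 was at 14.9, 16.4 and 13.6 CPM in Rag2 gc KO, against 27.4, 32.8 and 26.3 CPM in Rag2 KO (-0.94, edgeR adjusted p = 0.0158). Col11a2 lost its call without Rag2 KO replicate 2 alone (edgeR adjusted p = 0.0624) and Col2a1 without any 1 library other than Rag2 KO replicate 2 (up to 0.126).

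Skeletal muscle genes moved with the first 2 Rag2 gc KO libraries. The list had a median log2 fold change of 1.81, with 0 of 16 called by edgeR and limma voom, 2 by DESeq2 and 6 higher at an unadjusted p under 0.05. It summed to 526, 718 and 142 CPM in Rag2 gc KO, against 190, 145 and 108 CPM in Rag2 KO, and 0 of its 18 genes were at 0 in all 6 libraries. Acta1, the actin of muscle fibres, was at 124, 117 and 18.4 CPM in Rag2 gc KO, against 23.6, 22.2 and 21.2 CPM in Rag2 KO. Muscle lies outside the labelled tissue, and its part in the other differences was not tested.

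Interferon-induced genes varied widely within both genotypes. Of 27 type I interferon genes edgeR and limma voom called 0, DESeq2 5 higher, and 7 were higher at an unadjusted p under 0.05, with a median log2 fold change of 0.59 that ranged from 0.31 to 0.92 when 1 library was left out. Usp18, which ends interferon signalling, was at 15.4, 7.78 and 14.5 CPM in Rag2 gc KO, against 4.92, 7.03 and 3.84 CPM in Rag2 KO (1.25, edgeR adjusted p = 0.149). Of 21 interferon gamma genes edgeR and limma voom called 0, DESeq2 2 higher, and 3 were higher at an unadjusted p under 0.05, with a median of 0.33. Gbp4, a GTPase that interferon gamma induces, was at 2.27, 2.23 and 6.41 CPM in Rag2 gc KO, against 3.13, 33.3 and 2.02 CPM in Rag2 KO. For this gene Rag2 KO replicate 2, the library with most NK counts, was far above the other 5. The whole interferon gamma list summed highest in Rag2 gc KO replicate 3, at 363.8 CPM, beside 337.5 CPM in Rag2 KO replicate 2. The 18 MHC class I genes had a median of 0.60 and the 11 MHC class II genes 0.55, with 0 called in either by edgeR and limma voom, 2 by DESeq2 in each, and 4 and 3 higher at an unadjusted p under 0.05. Without Rag2 gc KO replicate 3 the class I median was 0.27, and without replicate 1 the class II median was 0.25.

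Genes of the cell cycle and of stress also leaned up. Of 22 proliferation genes 0 were called by edgeR and limma voom, 3 by DESeq2, and 10 were higher at an unadjusted p under 0.05, with a median log2 fold change of 0.44. Rrm2, a subunit of the enzyme that makes deoxynucleotides, was at 5.55, 4.43 and 4.42 CPM in Rag2 gc KO, against 1.95, 2.51 and 2.81 CPM in Rag2 KO (0.99, edgeR adjusted p = 0.115). Hspa8, the constitutive Hsc70 chaperone, rose, at 1410, 1681 and 1477 CPM in Rag2 gc KO, against 1024, 817 and 757 CPM in Rag2 KO (0.81, edgeR adjusted p = 0.0324). Pdia3, a disulfide isomerase that helps glycoproteins and MHC class I fold, rose, at 281, 312 and 302 CPM in Rag2 gc KO, against 223, 229 and 224 CPM in Rag2 KO (0.41, edgeR adjusted p = 0.0392). Hspa8 was the 1 called of 16 genes of heat shock and unfolded protein response, and it lost its call without Rag2 gc KO replicate 2 or 3 or Rag2 KO replicate 2 or 3 (edgeR adjusted p up to 0.161). Pdia3 kept its call only without Rag2 gc KO replicate 1 (up to 0.181). Of 14 oxidative stress genes edgeR and limma voom called 0, DESeq2 4, and 7 were higher at an unadjusted p under 0.05. Slc7a11, the cystine importer that feeds glutathione synthesis, was at 13.1, 16.6 and 27.6 CPM in Rag2 gc KO, against 7.59, 7.87 and 8.51 CPM in Rag2 KO (1.26, edgeR adjusted p = 0.113).

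The called genes that fell included the long noncoding RNAs Meg3 and Miat, and Snhg11, which the gene annotation labels protein coding. These genes were picked after their values were seen and are part of no list. Meg3, an imprinted RNA that neurons express, was at 527, 472 and 521 CPM in Rag2 gc KO, against 758, 704 and 811 CPM in Rag2 KO (-0.58, edgeR adjusted p = 0.0212). Miat, a nuclear RNA studied in the retina, was at 23, 30.5 and 27.2 CPM in Rag2 gc KO, against 49.7, 44 and 53.8 CPM in Rag2 KO (-0.87, edgeR adjusted p = 0.0206). Snhg11, a host of small nucleolar RNAs in neurons, was at 384, 398 and 371 CPM in Rag2 gc KO, against 549, 644 and 623 CPM in Rag2 KO (-0.66, edgeR adjusted p = 0.0126). Meg3 lost its call without Rag2 gc KO replicate 2 or any 1 Rag2 KO library, Miat without Rag2 gc KO replicate 3 or Rag2 KO replicate 1 or 3, and Snhg11 without Rag2 KO replicate 2 or 3, with an edgeR adjusted p of at most 0.0999.

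The largest folds belonged to genes whose levels were close to 0 in 1 of the genotypes. Tnfrsf8, the CD30 receptor of activated lymphocytes (ENSMUSG00000028602, chromosome 4, 145267137 to 145315164), was at 10.4, 7.06 and 9.17 CPM in Rag2 gc KO, against 0.033, 0.0335 and 0.0993 CPM in Rag2 KO. It rose by 7.22 ± 0.379 on the log2 scale (SE, edgeR adjusted p = 1.13e-04), with or without any single library, and the wild type held 10.5 to 15.7 CPM at day 3 and 11.4 to 15.8 CPM in control. Tecta, a matrix protein known from the tectorial membrane of the inner ear (ENSMUSG00000037705, chromosome 9, 42329619 to 42399929), was at 0.373, 0.216 and 0.0354 CPM in Rag2 gc KO, against 9.21, 13 and 12.4 CPM in Rag2 KO. It fell by 5.78 on the log2 scale (edgeR adjusted p = 0.00321), and the wild type held at most 0.796 CPM. Tnfrsf8 in the wild type thus lay near Rag2 gc KO and far from Rag2 KO, and so did Tecta. Gm45349, a noncoding RNA of chromosome 8, had 2.61, 6.63 and 2.41 CPM in Rag2 gc KO and 0 counts in Rag2 KO, at least 117-fold higher with a floor of 3 counts over the group (edgeR adjusted p = 0.0311). Tescl, a calcium-binding protein related to tescalcin, was at 1.3, 2.99 and 0.956 CPM in Rag2 gc KO, against 0.033, 0 and 0 CPM in Rag2 KO (6.83, edgeR adjusted p = 0.0167). For both, the wild type held at most 0.245 CPM and lay near Rag2 KO, and both calls were lost without any 1 of the Rag2 KO libraries (edgeR adjusted p = 0.0758 to 0.0911).

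The called genes were not spread evenly over the genome. On chromosome 4, 22 genes were called, 13 higher and 9 lower, and all 22 lay beyond 140 Mb, where they made up 9.28% of the 237 tested genes. The first began at 145267137 and the last ended at 156255352. On chromosome 8, 6 of the 123 tested genes beyond 120 Mb were called (4.88%), 2 higher and 4 lower, from 122476143 to 124834713. Among the other 18563 tested genes 60 were called (0.323%). These stretches were chosen after the positions were seen. Neither targeted gene lies there: within 10 Mb of Il2rg 0 of 108 other tested genes were called by edgeR, with 16 at an unadjusted p under 0.05, and within 10 Mb of Rag2 1 of 104 was called, Gm9821, with 12 at an unadjusted p under 0.05.

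**Figure D4:**
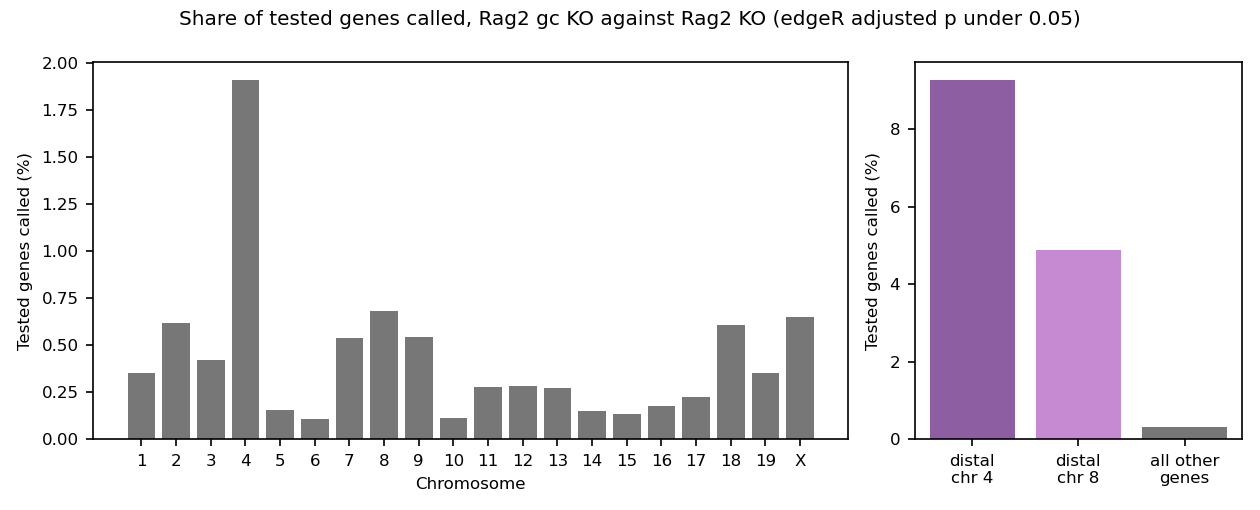
Percentage of tested genes called between Rag2 gc KO and Rag2 KO on each chromosome, left, and in the distal stretches of chromosomes 4 and 8 and among all other genes, right, at an edgeR adjusted p under 0.05. Chromosome 4 stands highest at 1.91%, and its distal stretch reaches 9.28% beside 0.323% outside the stretches.

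Beside Tnfrsf8, the distal stretch of chromosome 4 held Miip, an inhibitor of cell migration (147860778 to 147868816), at 40.8, 38.2 and 39.9 CPM in Rag2 gc KO, against 18.6, 15.2 and 17.3 CPM in Rag2 KO (1.22, edgeR adjusted p = 0.00176). Espn, an actin bundler of hair cell stereocilia that also lies in other sensory cells (152120331 to 152152371), was at 89.4, 112 and 93.8 CPM in Rag2 gc KO, against 39.6, 37.1 and 45.4 CPM in Rag2 KO (1.28, edgeR adjusted p = 0.00307). Both rose in all 6 runs without a library. A run of zinc finger genes went both ways: Zfp984 was at 3.24, 3.53 and 3.08 CPM in Rag2 gc KO, against 0.165, 0.669 and 0.463 CPM in Rag2 KO (2.91, edgeR adjusted p = 0.0275), and Zfp990 at 0.0373, 0 and 0.0708 CPM in Rag2 gc KO, against 1.39, 2.81 and 2.88 CPM in Rag2 KO (-5.87, edgeR adjusted p = 0.00894). Gm16503 of the same run had 0.82, 0.721 and 1.56 CPM in Rag2 gc KO and 0 counts in Rag2 KO, at least 31.3-fold higher with the same floor. Zfp984 lost its call without Rag2 gc KO replicate 2, Rag2 KO replicate 2 or Rag2 KO replicate 3 (edgeR adjusted p = 0.0578 to 0.126). Masp2, a protease of the lectin pathway of complement, was at 1.38, 1.58 and 1.1 CPM in Rag2 gc KO, against 5.64, 3.68 and 5.66 CPM in Rag2 KO (-1.88, edgeR adjusted p = 0.0266), and its gene model overlaps that of Tardbp, so reads of both may mix. Masp2 lost its call without replicate 1 or 3 of either genotype (edgeR adjusted p up to 0.121), and Gm16503 without any 1 library other than Rag2 gc KO replicate 1 (up to 0.0931).

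On distal chromosome 8, Agt, the precursor of angiotensin, rose, at 12.1, 14.3 and 16.4 CPM in Rag2 gc KO, against 6.04, 7.6 and 6.79 CPM in Rag2 KO (1.07, edgeR adjusted p = 0.0311). Trim67, a neuronal ubiquitin ligase, fell, at 43.3, 49.4 and 41 CPM in Rag2 gc KO, against 94.4, 93.3 and 67.7 CPM in Rag2 KO (-0.93, edgeR adjusted p = 0.0412). Agt kept its call only without Rag2 gc KO replicate 1 (edgeR adjusted p up to 0.145 otherwise), and Trim67 only without Rag2 KO replicate 3 (up to 0.152). Set beside wild-type day 3 on log2(CPM + 0.1), 22 of the 28 called genes of both stretches lay nearer to Rag2 gc KO and 6 nearer to Rag2 KO. Of all 88 called genes, 55 lay nearer to Rag2 gc KO and 33 nearer to Rag2 KO. Of those called at least 2-fold, 14 of 15 in the stretches lay nearer to Rag2 gc KO and 1 nearer to Rag2 KO, beside 11 and 9 of the 20 elsewhere. Set beside wild-type control instead, 21 of the 28 genes of the stretches lay nearer to Rag2 gc KO and 7 nearer to Rag2 KO. Over all 88 the control went the other way, with 37 nearer to Rag2 gc KO and 51 nearer to Rag2 KO. The wild type comes from a separate table that was scaled apart, and genotype and table cannot be told apart in this.

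Elsewhere in the genome, Gatm, the first enzyme of creatine synthesis (ENSMUSG00000027199, chromosome 2, 122594467 to 122611303), rose, at 25.4, 17.1 and 28 CPM in Rag2 gc KO, against 8.88, 7.6 and 8.08 CPM in Rag2 KO (1.52, edgeR adjusted p = 0.0137). Both genotypes lay above the wild type, which held 1.58 to 3.84 CPM over control and day 3. Mtm1, a phosphatase of endosomal lipids, rose, at 23, 32.3 and 24.2 CPM in Rag2 gc KO, against 11.5, 14.5 and 12.6 CPM in Rag2 KO (1.04, edgeR adjusted p = 0.0285). Ins2, an insulin gene that the mouse eye expresses at a low level, fell, at 1.53, 1.3 and 1.77 CPM in Rag2 gc KO, against 6.21, 5.56 and 3.87 CPM in Rag2 KO (-1.76, edgeR adjusted p = 0.0299). Gatm and Mtm1 lost their calls without any 1 of the Rag2 KO libraries (edgeR adjusted p = 0.0509 to 0.133), and Ins2 without replicate 1 or 2 of either genotype (up to 0.121).

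Of the 88 called genes, 16 have a near-identical copy elsewhere in the transcriptome, at 95% identity or more over 500 bases or over 90% of the shorter transcript, so that short reads may be assigned to either. Eno1, the glycolytic enzyme alpha-enolase on chromosome 4 (150236721 to 150248879), is the clearest case. It was at 2764, 2749 and 2922 CPM in Rag2 gc KO, against 1820, 1557 and 1300 CPM in Rag2 KO (0.85, edgeR adjusted p = 0.0212). That call was lost without replicate 2 or 3 of either genotype (edgeR adjusted p = 0.0586 to 0.126). Its copies moved in the opposite direction: Eno1b was at 56.1, 53.5 and 63.6 CPM in Rag2 gc KO, against 763, 678 and 532 CPM in Rag2 KO (-3.51, edgeR adjusted p = 1.13e-04). The processed pseudogene Gm4735 was at 20.9, 24.4 and 22.8 CPM in Rag2 gc KO, against 123, 102 and 80.1 CPM in Rag2 KO (-2.16, edgeR adjusted p = 0.00375), and Gm5855 at 1.34, 1.41 and 1.34 CPM in Rag2 gc KO, against 9.87, 11.2 and 8.97 CPM in Rag2 KO (-2.87, edgeR adjusted p = 4.84e-04). Eno1 took 97.2% of the summed CPM of the 4 genes in Rag2 gc KO and 67% in Rag2 KO. Eno1b took 2% in Rag2 gc KO and 28.3% in Rag2 KO.

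The sequences below, from GENCODE M21 transcripts on mm10 and all in the coding part, show how few bases set the copies apart. They are 100 bases long. Capitals in Eno1 mark bases at which a copy differs, and capitals in a copy mark its differences from Eno1, 2 in Gm4735 (chr2:80837857-80837956, plus strand) and 4 in Gm5855 (chr3:130929855-130929954, minus strand). Over the whole alignment with the Eno1 transcript, Gm4735 differs at 5 of 1302 bases and Gm5855 at 47 of 1306.
Eno1: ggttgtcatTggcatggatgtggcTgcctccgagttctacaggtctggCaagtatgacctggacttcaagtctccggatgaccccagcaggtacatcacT
Gm4735: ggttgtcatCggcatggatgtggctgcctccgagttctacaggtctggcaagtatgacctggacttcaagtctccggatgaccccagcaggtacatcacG
Gm5855: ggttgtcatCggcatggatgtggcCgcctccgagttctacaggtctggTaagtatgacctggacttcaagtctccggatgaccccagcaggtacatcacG

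With the 4 genes summed, the family was at 2843, 2828 and 3010 CPM in Rag2 gc KO, against 2716, 2348 and 1922 CPM in Rag2 KO, or 0.31 ± 0.119 on the log2 scale (SE, edgeR adjusted p = 0.283), so neither the rise of Eno1 nor the fall of its copies stood as a call of the family. Wild-type libraries held 31.9 to 56.2 CPM of Eno1b and 0.262 to 0.673 CPM of Gm5855, below every Rag2 KO library for both genes. Other glycolytic genes did not follow Eno1: it was the 1 called of 22 genes of hypoxia and glycolysis, whose median was -0.04.

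**Figure D5:**
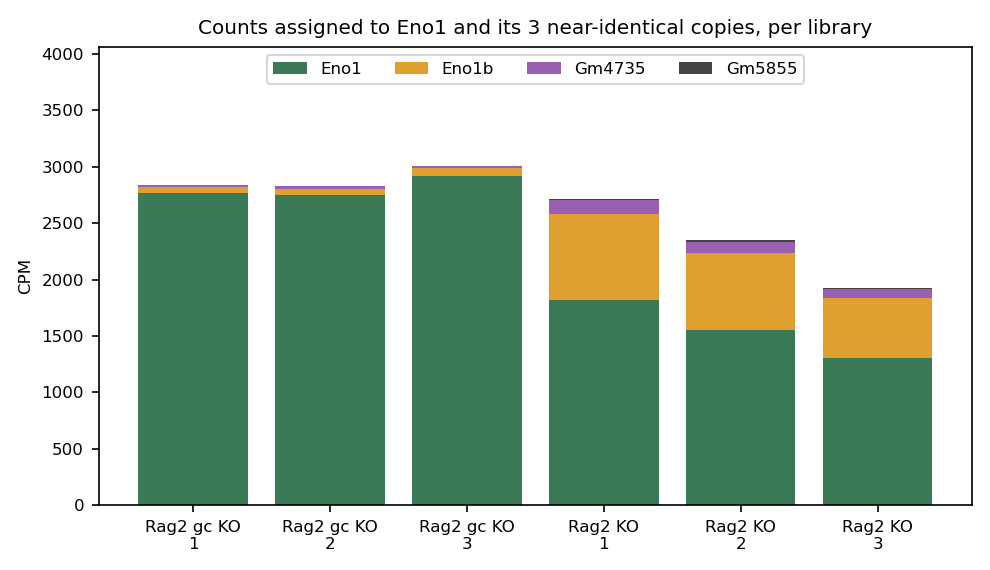
CPM assigned to Eno1 and to its copies Eno1b, Gm4735 and Gm5855 in each library, stacked, with the 3 Rag2 gc KO libraries left of the 3 Rag2 KO libraries. The stacks of Rag2 gc KO reach 2828 to 3010 CPM and are nearly all Eno1, and those of Rag2 KO reach 1922 to 2716 CPM with a visible share of Eno1b.

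Ube2j2, a ubiquitin-conjugating enzyme of the endoplasmic reticulum at the far end of chromosome 4 (155943831 to 155959604), showed the same pairing with its copy Gm5801 on chromosome 14. Ube2j2 was at 60.5, 62.1 and 59.7 CPM in Rag2 gc KO, against 44, 41.9 and 43.6 CPM in Rag2 KO (0.49, edgeR adjusted p = 0.0167). Gm5801 was at 0.224, 0.252 and 0.212 CPM in Rag2 gc KO, against 2.21, 2.11 and 1.72 CPM in Rag2 KO (-3.11, edgeR adjusted p = 0.00894). Their sum was still higher in Rag2 gc KO (0.43, edgeR adjusted p = 0.0318). Ube2j2 lost its call without Rag2 KO replicate 2 or 3 (edgeR adjusted p up to 0.0911). The copy (chr14:56011043-56011142, minus strand) differs from Ube2j2 at the 2 capitals in this window of the coding part, and at 6 of 780 bases in all.
Ube2j2: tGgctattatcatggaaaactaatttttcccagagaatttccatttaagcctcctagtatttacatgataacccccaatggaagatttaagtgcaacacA
Gm5801: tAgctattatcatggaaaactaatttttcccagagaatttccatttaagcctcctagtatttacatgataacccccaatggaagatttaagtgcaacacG

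Gm8010 on chromosome 1, an unprocessed pseudogene close to Tsnax of distal chromosome 8, fell by 5.26 on the log2 scale (edgeR adjusted p = 0.0457), at 0, 0 and 0.0708 CPM in Rag2 gc KO, against 1.65, 1.07 and 0.53 CPM in Rag2 KO. Tsnax, a partner of translin in RNA processing, was at 156, 151 and 155 CPM in Rag2 gc KO, against 123, 104 and 125 CPM in Rag2 KO (0.39, edgeR adjusted p = 0.0893). Zfp992 on distal chromosome 4 was at 1.38, 1.55 and 0.92 CPM in Rag2 gc KO, against 3.73, 6.46 and 4.87 CPM in Rag2 KO (-1.96, edgeR adjusted p = 0.0324), and its neighbour and near-copy Zfp991 at 2.65, 2.77 and 2.8 CPM in Rag2 gc KO, against 0.792, 1.27 and 1.06 CPM in Rag2 KO (1.39, edgeR adjusted p = 0.0801). Summed with its copies, the Zfp992 family had a log2 fold change of -0.26 (edgeR adjusted p = 0.627). Gm8010 lost its call without any 1 library (up to 0.152) and Zfp992 without any other than Rag2 KO replicate 1 (up to 0.126). Reads shared between copies cannot be resolved from these counts. Gene models also overlap: 45 of the 88 called genes overlap another gene, and the sources used here do not say whether counting used strand, so a gene and its antisense partner cannot be told apart.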

How the data were processed

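Bulk RNA of retina and choroid was sequenced, and the deposited table gives whole-number counts per gene for each library, made with featureCounts 1.5.0-p3 on mm10 per the submitters' processing notes. For the aligner, annotation release and strand setting: not given in the sources used here. The authors' FPKM values stand beside the counts. Within each library they are proportional to the deposited counts over gene length, with a scale of 0.986 to 1.015 times the library total. They were used only for that check. Groups come from the titles.

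Genes were kept with edgeR's filterByExpr (minimum count 10, minimum total 15), scaled by TMM and tested with edgeR 4.0.16 (robust quasi-likelihood, R 4.3.3) over the 6 libraries, with Benjamini-Hochberg adjustment over all 18923 genes and a threshold of 0.05. The fit was first tested on simulated data. CPM are counts scaled to a common library size with the TMM factors, computed apart for the wild-type table. Counting floors given in CPM use library totals without these factors, and the fold bounds of genes at 0 counts use library sizes with them. DESeq2 1.42.0 and limma 3.58.1 (voom) were alternatives, with other scalings and filters, no robust estimation, a replicate block and each library left out. Summing near-identical copies, leaving out the distal stretches of chromosomes 4 and 8 and summing the neutrophil list without Lcn2 were added after seeing the data. Copies of the called genes were found by blastn 2.17.0 among GENCODE M21 transcripts.

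The comparison and the gene lists were chosen with earlier results of these data known. Named genes are both targeted genes, the 15 largest rises and falls among called genes with at least 1 CPM and no overlap, the 3 smallest p of each list, all NK and gamma chain genes, and the 3 smallest p of a 10 Mb bin with 5 or more calls. Not all of these are described, and other genes named (among them Eomes, Tmem119, Ccr2, Gfap, Lcn2, Csf3r, Col1a1, Postn, Gbp4, Acta1, Kdr, C3, Ctsz, Ctsl, Timp2, Miat, Meg3, Snhg11, Pdia3, Tsnax and Zfp991) were chosen after their values were seen. Counting floors cover counting error only. Some genes of these lists are not reported here.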

Additional observations from a re-analysis of the deposited data

How the results depend on the processing

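Of the 88 calls, 40 higher and 48 lower, DESeq2 size factors gave the same 88, library totals 81, a filter of 1 CPM 75, limma voom 81 and summed copies 72. Counts moved by more than 1.5 times with no filter on low counts (491 called, 277 higher and 214 lower), with DESeq2 (693, 427 and 266), without robust estimation (50, 22 and 28) and without the distal stretches of chromosomes 4 and 8 (36, 12 and 24). Leaving out 1 library gave 25 to 116 calls, 9 to 54 higher and 16 to 62 lower. The cause of these shifts was not tested. Same-numbered libraries deviated together with a correlation of -0.058 to 0.078, which shows no pairing by number. With 3 libraries a group this cannot settle whether the samples were paired. A fit with the replicate block called 46 genes, 23 higher and 23 lower, 35 of them among the 88. The log2 fold change of Gfap ranged from -0.10 without Rag2 gc KO replicate 3 to 0.93 without Rag2 gc KO replicate 1, and that of Gm8010 was 0.38 when summed with Tsnax, whose counts make up nearly all of that sum. With 3 libraries a group, and 0 to 62 counts for Il2rg and for the NK sum, depth limits what can be said of genes of rare cells.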

Other observations

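Rag2 KO replicate 2 held the most NK counts and the most Il2rg of the 6 libraries, and it also held the highest levels of several genes that interferon gamma induces. Iigp1, a GTPase that attacks the vacuoles of parasites, was at 3.28, 0.901 and 6.23 CPM in Rag2 gc KO, against 1.49, 14.9 and 2.18 CPM in Rag2 KO. Tgtp2, another such GTPase, was at 1.23, 0.432 and 1.17 CPM in Rag2 gc KO, against 0.891, 7.46 and 1.32 CPM in Rag2 KO. Ifng itself had 0 counts in all 6 libraries. These genes were chosen after their values were seen, and 1 library gives no test. The whole interferon gamma list summed to 287.8, 207 and 363.8 CPM in Rag2 gc KO, against 173.5, 337.5 and 178.9 CPM in Rag2 KO. Its sum was highest in Rag2 gc KO replicate 3, and its mean log2 CPM was 3.21 there and 3.34 in Rag2 KO replicate 2. The type I interferon list summed to 623.5, 367 and 723.2 CPM in Rag2 gc KO, against 312.9, 524 and 294 CPM in Rag2 KO. Gapdh, a glycolytic enzyme often used as a reference, was at 39.5, 32.7 and 39.6 CPM in Rag2 gc KO, against 51, 206 and 249 CPM in Rag2 KO (log2 fold change -2.18, edgeR adjusted p = 0.282). Near-identical copies were searched for called genes only, so whether reads of Gapdh are shared with copies was not checked.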
